A study of Mus musculus with 44 samples.

Results

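The cancer-testis genes of the mouse, Trap1a, Mageb16, Tex19.1, Tex101 and Gm773, were followed through 44 RNA-seq libraries of lineage-traced embryos. They were picked by name from genes that stood higher in extraembryonic than in embryonic gut cells at E9.5, and make up 5 of the 32287 gene identifiers quantified. That E9.5 difference, and the presence of the genes in E6.5 extraembryonic endoderm implied by the word retained, therefore chose the genes and are described below with no test. Every level is in TPM, the share of a library's transcripts that a gene accounts for after correction for gene length, so levels can be set side by side between genes. The word retained holds unevenly, since Trap1a, Mageb16 and Tex19.1 were above 1 TPM in all 26 libraries of extraembryonic origin, whereas Gm773 was above 1 TPM in 12 of them and Tex101 in 4.

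All embryos came from the aggregation of an mCherry+ host morula (CD1/G4) with GFP+ mouse embryonic stem cells (G4), so that extraembryonic cells carry mCherry and embryonic cells carry GFP. At E6.5, 3 wild-type (WT) tissues were isolated by hand from single embryos with 4 libraries each, namely epiblast (Epi), distal extraembryonic endoderm (exEndo 1) and proximal extraembryonic endoderm (exEndo 2). At E9.5, pools of 4 WT embryos gave EPCAM+ midgut and hindgut cells of extraembryonic origin (exMidgut and exHindgut, together exGut) or embryonic origin (emMidgut and emHindgut, together emGut), and yolk sac endoderm (YsEndo), again with 4 libraries each. The embryonic E9.5 cells were taken from dual-labelled cells, which the study describes as clearly GFP+ cells that contain mCherry+ foci, with a gate on a weak mCherry signal, and EGFP transcripts were at 548 to 880 TPM in them. At E13.5, EPCAM+ small intestine and colon endoderm of single embryos gave 3 libraries each of mCherry+ Trp53 KO cells (exSI, exColon) and of GFP+ WT cells (emSI, emColon). The embryonic cells descend from 1 male stem cell line and the host morulae were of either sex and another strain background, so lineage, strain and, at E13.5, the Trp53 genotype cannot be told apart in any comparison of the 2 origins. The sexes may differ too, and Xist, the RNA of the inactive X chromosome in females, is given below where it bears on this. The stages carry a developmental delay from the transfer of the embryos.

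Cancer-testis genes are expressed mainly in male germ cells of the adult, are silent in most somatic tissues, and reappear in many tumours, where their products can be recognised by T cells. Many of them lie on the X chromosome, and promoter DNA methylation is a well-known part of their silencing in somatic cells. Extraembryonic tissues of the mouse keep a genome with less DNA methylation than the embryo proper, and several germline genes are known to be active there.

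Of the 5 genes, 3 are X-linked and the other two are autosomal. In the mm10 build, Trap1a lies on the plus strand at chrX:139333683-139338169, Mageb16 on the minus strand at chrX:79623231-79671435 and Gm773 on the minus strand at chrX:56189827-56212881. Tex19.1 lies on the plus strand at chr11:121146143-121148319 and Tex101 on the minus strand at chr7:24668007-24676675. All are annotated as protein-coding, with 2 to 8 merged exons each.

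Promoters are shown for the steadiest gene, for the autosomal gene found throughout the extraembryonic libraries and for the gene that was either high or at 0, because these 3 genes carry the contrasts described below. Each window runs from 250 bases before to 50 bases after the RefSeq start in GRCm38.p6, which shares its coordinates with mm10, and is written 5′ to 3′ on the strand of the gene. The windows are chrX:139333433-139333732 on the plus strand for Trap1a, chr11:121145893-121146192 on the plus strand for Tex19.1 and chrX:56212832-56213131 on the minus strand for Gm773. Capitals mark CG dinucleotides, the sites at which DNA methylation is placed.
Trap1a: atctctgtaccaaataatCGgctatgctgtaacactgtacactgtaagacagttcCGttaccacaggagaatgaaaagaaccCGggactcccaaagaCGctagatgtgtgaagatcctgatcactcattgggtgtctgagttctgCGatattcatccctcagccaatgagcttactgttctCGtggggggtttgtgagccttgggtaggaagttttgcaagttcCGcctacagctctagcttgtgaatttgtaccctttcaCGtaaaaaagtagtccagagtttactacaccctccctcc
Tex19.1: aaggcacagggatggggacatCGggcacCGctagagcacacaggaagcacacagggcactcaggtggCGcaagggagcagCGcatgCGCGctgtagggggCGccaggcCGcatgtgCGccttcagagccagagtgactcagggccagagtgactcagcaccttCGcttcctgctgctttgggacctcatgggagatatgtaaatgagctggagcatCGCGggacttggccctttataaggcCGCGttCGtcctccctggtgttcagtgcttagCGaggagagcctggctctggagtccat
Gm773: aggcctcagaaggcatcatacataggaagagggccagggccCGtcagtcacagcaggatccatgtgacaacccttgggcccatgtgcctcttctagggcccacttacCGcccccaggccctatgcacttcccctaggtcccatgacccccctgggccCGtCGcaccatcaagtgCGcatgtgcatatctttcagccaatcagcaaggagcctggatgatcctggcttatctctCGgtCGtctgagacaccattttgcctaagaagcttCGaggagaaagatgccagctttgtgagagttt

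The promoters of Trap1a and Gm773 held 8 CG dinucleotides each, close to the median of 7 over all 32851 RefSeq promoter windows of the same length. Mageb16 held 6, Tex19.1 held 16 and Tex101 held 19, all inside the span from the lower quartile of 3 to the upper quartile of 20. A window with at least 16 was found for 33.0% of promoters and a window with at least 19 for 28.1%. The GC content ran from 46.7% in Trap1a to 61.3% in Tex19.1. The letters CCAAT, searched on both strands, occurred in 4 of the 5 promoters, beginning 88 and 124 bases before the start in Trap1a, 151 in Mageb16, 56 in Gm773, and at 4 places between 65 and 144 bases before it in Tex101. They were not in the Tex19.1 window, and 37.4% of all windows hold them. The motifs were chosen after these promoters were seen, so nothing is read from 4 of 5 beside that share. Neither CACGTG, present in 7.15% of windows, nor GCGGGAA, present in 4.60% of windows and searched on both strands, was found in any of the 5. The RefSeq start used for Tex101 lies inside the annotated gene rather than at its 5′ end.

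**Figure D1:**
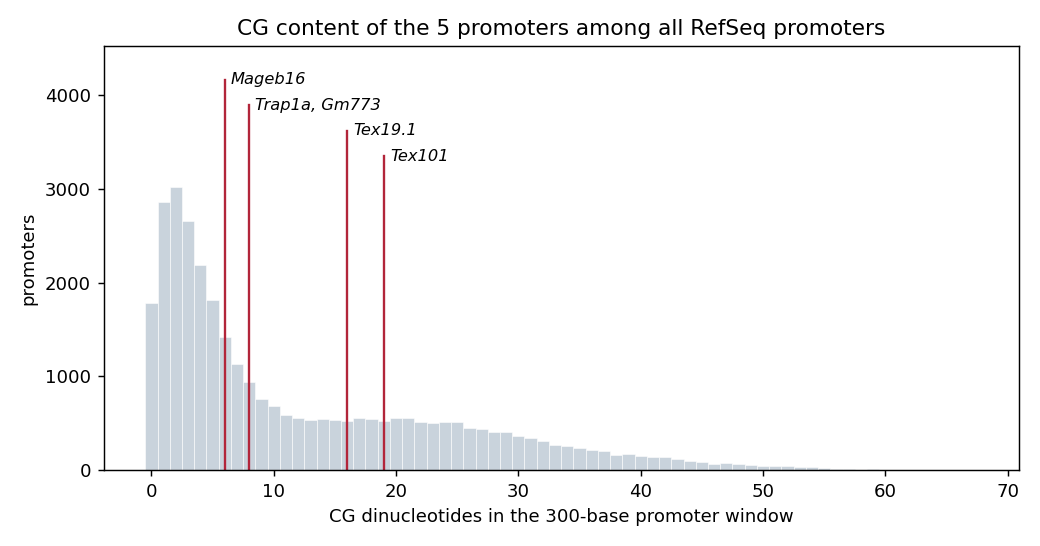
Number of RefSeq promoter windows (y axis) by their count of CG dinucleotides in 300 bases (x axis), with the 5 genes as red lines. Mageb16, Trap1a and Gm773 sit at 6 to 8, near the median of 7, and Tex19.1 and Tex101 sit at 16 and 19, below the upper quartile of 20.

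The reporters matched the labelled origin in every library, with mCherry at 1731 to 8667 TPM in libraries of extraembryonic origin and at most 6.61 TPM in those of embryonic origin. In such bulk samples, fewer cells of a type and less RNA per cell cannot be told apart. Between 10382 and 13596 genes were above 1 TPM per library. As an average over all genes of a library, 1 TPM corresponded to a read coverage per base of 1.02 to 3.74. Single genes depart from that average, and a level below 1 TPM rests on little coverage. Summed gut endoderm markers were 1371 to 3307 TPM in the gut and intestine groups, and 7 or 8 of the 8 were detected in each. The same markers summed to 1420 to 1805 TPM in YsEndo and 1024 to 1469 TPM in exEndo 2, so this sum does not separate gut from these tissues. In the extraembryonic groups, the 9 trophoblast markers summed to at most 92.7 TPM in exEndo 1, 53.0 TPM in exEndo 2 and 13.8 TPM at later stages, with the giant cell gene Prl3d1 at 0 in all E9.5 and E13.5 groups and Tpbpa, a marker of spongiotrophoblast, at 0 in all of them but exHindgut. Trp53 was listed at 33.4 to 167 TPM in the Trp53 KO libraries and at 151 to 245 TPM in the WT libraries of the same stage, and these ranges overlapped. A transcript level does not show whether the gene was edited.

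Trap1a, which encodes the P1A tumour rejection antigen, had the highest level of the 5 genes in every library of extraembryonic origin. In the 4 exEndo 1 libraries it was at 322, 275, 258 and 242 TPM, and in exEndo 2 at 133, 214, 185 and 191 TPM. In exMidgut it was at 541, 633, 556 and 513 TPM, and in exHindgut at 556, 484, 533 and 588 TPM. All E9.5 gut libraries of extraembryonic origin therefore stood above all E6.5 endoderm libraries. YsEndo held the highest levels, at 958, 954, 881 and 885 TPM. At E13.5 it was at 626, 535 and 637 TPM in exSI and at 852, 672 and 694 TPM in exColon. The spread within these groups was narrow, with a coefficient of variation from 4.59% in YsEndo to 18.9% in exEndo 2. In group means, Trap1a ran from YsEndo (920 ± 42.2 TPM, SD, n = 4) through exColon (739 ± 98.1 TPM, n = 3) to exSI, exMidgut and exHindgut, of which the last 3 overlapped among themselves. YsEndo, exColon, exEndo 1 and exEndo 2 each stood apart from their neighbours in the order.

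In libraries of embryonic origin Trap1a was low but not uniformly silent. Epi held 13.3, 11.3, 11.3 and 17.04 TPM, a level present in all 4 libraries and below every exEndo library. In emMidgut it was at 0, 0.297, 9.53 and 0.115 TPM, so that 1 library carried nearly all of the signal. In emHindgut it was at 0.191, 0, 0 and 0.954 TPM, and it was listed at 0 in all 6 embryonic E13.5 libraries. The emMidgut library at 9.53 TPM had mCherry at 0 TPM and Rhox5, an X-linked homeobox gene of the testis and placenta, at 24.1 TPM. Its 7 primordial germ cell markers summed to 237 TPM, against 306, 37.5 and 43.7 TPM in the other emMidgut libraries. The library with 306 TPM of these markers held no Trap1a, but had Mageb16 at 1.81 TPM, Rhox5 at 18.65 TPM and mCherry at 5.29 TPM. Mageb16 was at 1.26 TPM in the library with 237 TPM of the markers. In those with 37.5 and 43.7 TPM of them, Mageb16 was at 0.556 and 0 TPM and Rhox5 at 3.01 and 0 TPM. The part of germ cells, or of the mCherry+ foci in the sorted cells, in the signals of Trap1a, Mageb16 and Rhox5 was not tested.

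Mageb16 encodes a MAGE protein, a family defined by a shared homology domain through which several members bind E3 ubiquitin ligases. It held a similar level in all extraembryonic groups. It was at 60.0, 45.3, 48.9 and 35.4 TPM in exEndo 1 and at 39.0, 33.9, 30.02 and 32.1 TPM in exEndo 2. In exMidgut it was at 28.4, 26.2, 31.3 and 45.3 TPM, in exHindgut at 50.4, 59.2, 27.9 and 47.1 TPM, and in YsEndo at 43.3, 39.6, 34.7 and 28.7 TPM. The E13.5 values were 55.8, 27.4 and 41.1 TPM in exSI and 84.2, 28.7 and 36.5 TPM in exColon. In the order of group means, from exColon at 49.8 TPM to exMidgut at 32.8 TPM, every one of the 7 extraembryonic groups overlapped with the next. Epi stood apart below them at 8.05, 0.272, 0.307 and 0.633 TPM, where 1 library exceeded the rest. In emMidgut it was at 1.81, 0.556, 1.26 and 0 TPM, in emHindgut and emSI it was listed at 0 throughout, and in emColon at 0.538, 0 and 0 TPM. RefSeq lists pseudogenes of Mageb16, Mageb16-ps1 and Mageb16-ps2, and reads that the gene shares with them make its level uncertain.

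Tex19.1 acts in the germline, where it is needed for male meiosis, restrains retrotransposons and binds the ubiquitin ligase UBR2, and it is also expressed in the placenta. It was present in every extraembryonic library but varied widely inside groups. It was at 81.8, 24.1, 23.1 and 19.6 TPM in exEndo 1 and at 30.8, 44.6, 27.5 and 24.6 TPM in exEndo 2. In exMidgut it was at 6.71, 4.50, 38.5 and 88.5 TPM, and in exHindgut at 31.0, 11.7, 27.3 and 20.4 TPM. The 4 exMidgut libraries thus held both the lowest and the highest level of all extraembryonic libraries. YsEndo was the tightest group at 17.2, 19.8, 13.7 and 19.3 TPM. At E13.5 it was at 69.9, 40.4 and 11.3 TPM in exSI and at 21.4, 33.1 and 53.8 TPM in exColon. Neighbouring extraembryonic groups overlapped throughout the order from exSI to YsEndo, and Epi lay below them in the mean, at 8.64, 3.34, 2.20 and 1.69 TPM, overlapping with exMidgut alone. Of the 14 embryonic libraries at E9.5 and E13.5, 1 emHindgut library held 2.07 TPM and the others were listed at 0. The neighbouring paralogue Tex19.2 was at most 1.37 TPM in any library and at 0 in all exGut libraries.

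Gm773, an X-linked gene of uncharacterised function, was either clearly present or listed at 0 in libraries of the same group. In exMidgut it was at 0, 0, 51.6 and 84.6 TPM and in exHindgut at 0, 0, 76.3 and 150 TPM. In both regions replicates 1 and 2 were at 0 and replicates 3 and 4 were high. YsEndo held 0, 19.95, 40.02 and 55.7 TPM. At E13.5 exSI was at 71.1, 0 and 29.9 TPM and exColon at 9.40, 0 and 50.3 TPM, so that replicate 2 was at 0 in both organs. The labels do not say whether equal replicate numbers share embryos.

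At E6.5 Gm773 was almost absent from both endoderm tissues. In exEndo 1 it was at 19.07 TPM in 1 library and 0 in the other 3, and in exEndo 2 at 0, 0.310, 0.0460 and 0 TPM. It was listed at 0 in all 18 libraries of embryonic origin. Its presence in the E9.5 and E13.5 gut therefore went with detection above 1 TPM in 1 of 8 exEndo libraries, which goes against the word retained for this gene. Among the 18 libraries of YsEndo and of extraembryonic gut and intestine, 11 held Gm773 at 9.40 TPM or more and 7 were at 0. Of 21531 protein-coding genes outside the Y chromosome, only Gm773 itself was higher in each of those 11 libraries than in each of the 7.

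**Figure D2:**
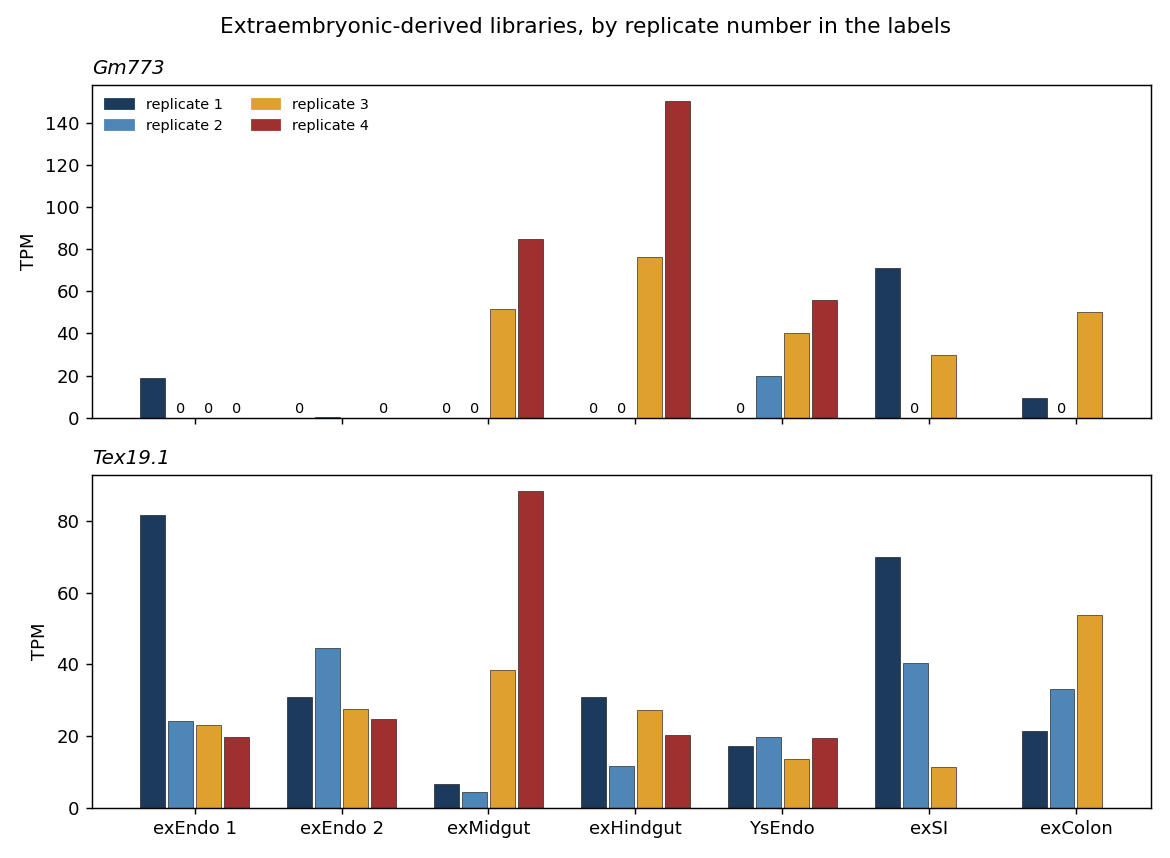
TPM of Gm773 and Tex19.1 (y axes) in each library of extraembryonic origin, grouped by tissue (x axis) and coloured by the replicate number of the label. Gm773 is at 0 in replicates 1 and 2 of both exMidgut and exHindgut and reaches 150 TPM in replicate 4 of exHindgut, whereas Tex19.1 is above 0 in every library.

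Tex101 encodes a glycoprotein anchored on the surface of male germ cells that is needed for sperm to migrate into the oviduct. It was at most 2.22 TPM in every library but 1. In exMidgut it was at 0.555, 2.22, 9.52 and 0 TPM and in exHindgut at 1.60, 0, 0 and 1.479 TPM. In exEndo 2 it was at 0.571, 0.923, 0.158 and 0.517 TPM, in exEndo 1 at 0.459, 0, 0 and 0 TPM, and in Epi at 0.683, 0.0662, 0 and 0 TPM. It was listed at 0 in every YsEndo, emMidgut and emHindgut library and in all 12 E13.5 libraries. In exEndo 1 and in the extraembryonic intestine at E13.5 the data thus go against the word retained for Tex101. All group ranges overlapped with their neighbours in the order of the means.

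**Figure D3:**
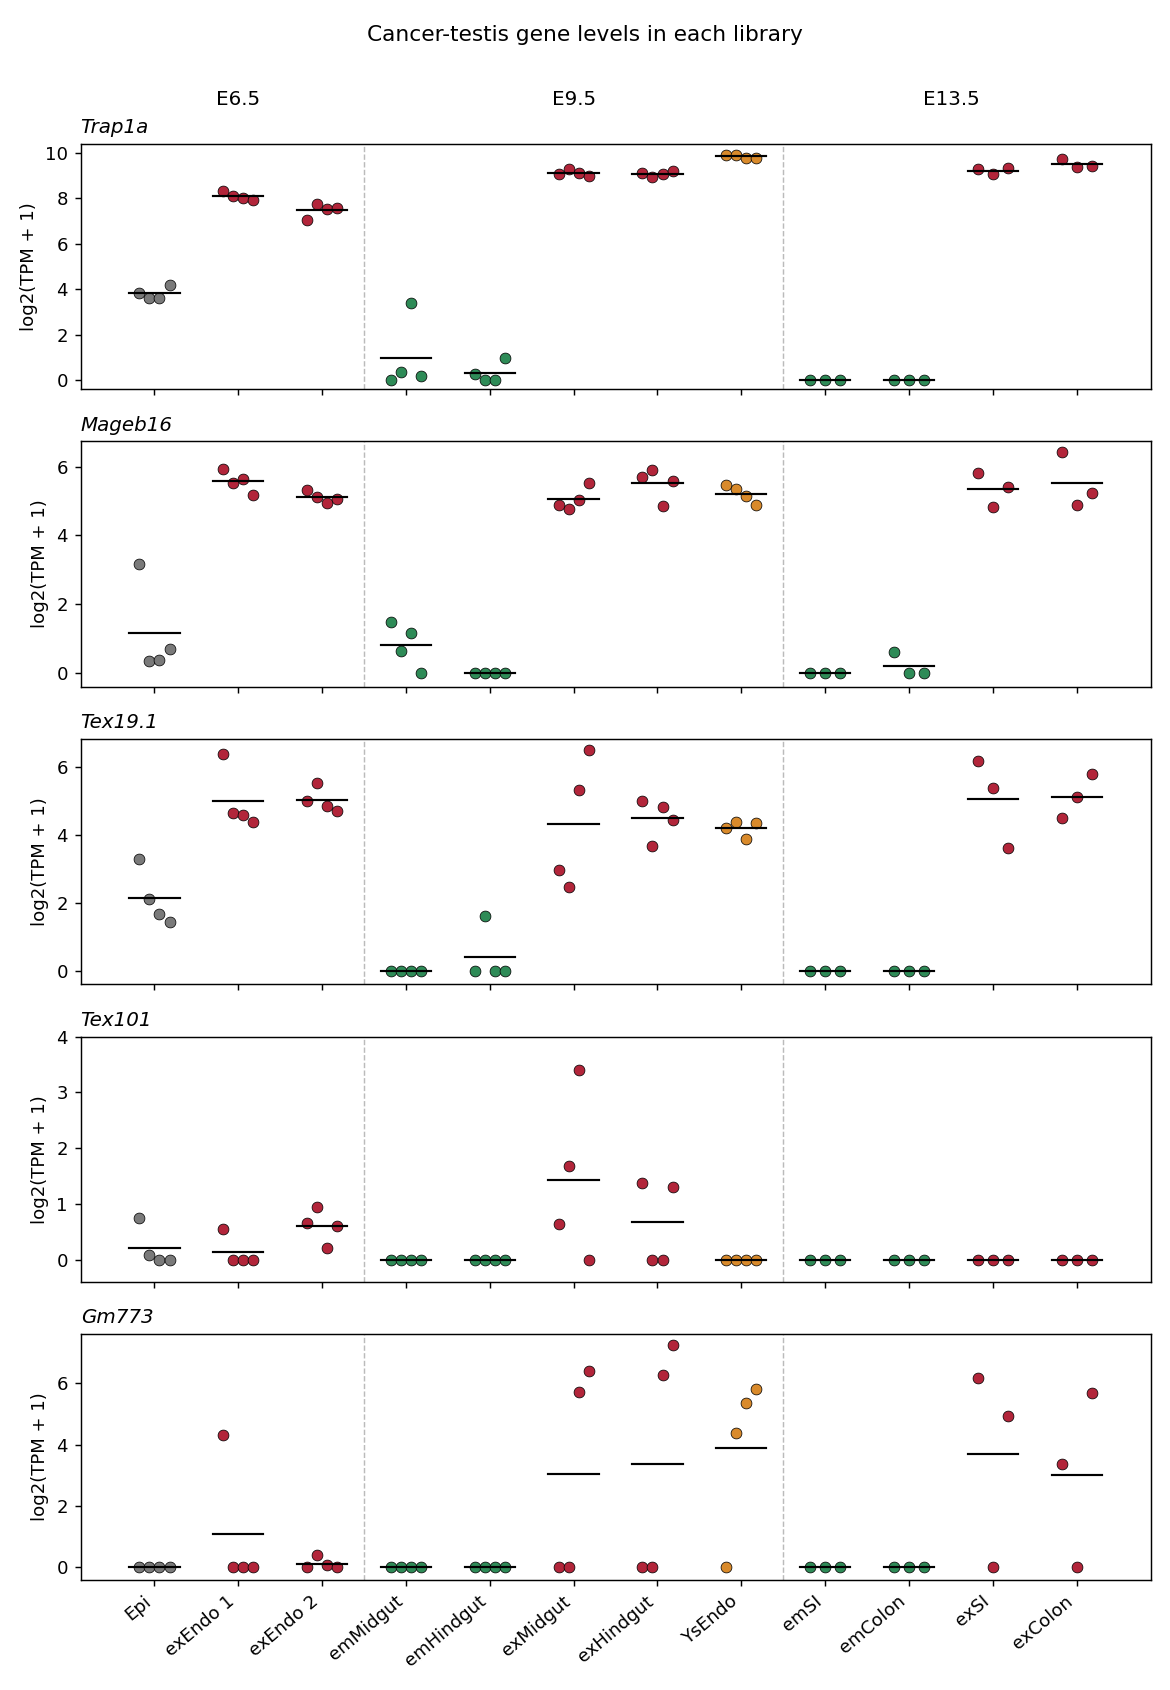
Level of each gene as log2(TPM + 1) (y axes) in every library of the 12 groups (x axis), with the mean of a group as a horizontal line; grey is Epi, green embryonic gut and intestine, red extraembryonic endoderm, gut and intestine, and orange YsEndo. Trap1a, Mageb16 and Tex19.1 are above 1 TPM in all 26 libraries of extraembryonic origin, Gm773 in 12 and Tex101 in 4.

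In Trap1a, Mageb16 and Tex19.1, every exGut library at E9.5 lay above every emGut library, which is how the genes were chosen. Their levels went together across origins, which that choice largely implies, but much less so within the extraembryonic libraries. Over all 44 libraries the Pearson correlation of log2(TPM + 1) was 0.95 between Trap1a and Mageb16, 0.91 between Trap1a and Tex19.1, and 0.92 between Mageb16 and Tex19.1. Over the 26 extraembryonic libraries the same pairs gave 0.07, -0.21 and 0.24. Trap1a and Gm773 gave 0.54 over all libraries and 0.49 over the extraembryonic ones. These values describe the libraries, which share tissue and stage within groups.

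The difference between origins was tested at E13.5, in libraries outside the E9.5 contrast that chose the genes. The genes were picked with earlier results of these data known, so the E13.5 libraries are not fully independent of the choice. Trap1a, Mageb16 and Tex19.1 were higher in extraembryonic than in embryonic intestine in both organs, with every extraembryonic library above every embryonic one. In limma with Benjamini-Hochberg adjustment over all genes, calls required that the adjusted p lie under 0.05 and that the difference on the log2(TPM + 1) scale exceed 1 in size. All 3 were called higher in the colon, where 0.233% of the 11167 genes tested were (0.269% in either direction), and in the small intestine, where 0.51% of 11376 genes were (0.738% in either direction). The 3 genes passed the filter through their extraembryonic libraries alone, which left no room for a call in the other direction, so nothing is read from 3 of 3 beside these shares. The p-values of these genes, given in the next paragraph, carry the same limits. Gm773 and Tex101 were not above 1 TPM in enough libraries to be tested. Without the filter, Gm773 differed by 3.02 in the colon and 3.71 in the small intestine (limma, adjusted p = 0.656 and 0.613). With 1 library left out it entered the test in some fits, at 3.02 to 4.53 in the colon (adjusted p from 0.233 to 0.658) and at 3.71 to 5.56 in the small intestine (0.0167 to 0.547), and the fit without exSI replicate 2, a library at 0, was the 1 that met both thresholds. No fold is given, because the embryonic libraries were mostly listed at 0.

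For Trap1a the difference on the log2(TPM + 1) scale was 9.52 ± 0.50 (SE) in the colon (limma, adjusted p = 1.37e-06) and 9.23 ± 0.40 in the small intestine (adjusted p = 1.82e-07). For Mageb16 it was 5.30 ± 0.83 in the colon (limma, adjusted p = 0.0245) and 5.35 ± 0.64 in the small intestine (adjusted p = 0.00162). For Tex19.1 it was 5.12 ± 0.82 in the colon (limma, adjusted p = 0.0281) and 5.05 ± 0.77 in the small intestine (adjusted p = 0.0100). In the colon, leaving out any 1 of the 6 libraries ended the calls of Mageb16 (adjusted p from 0.0502 to 0.205) and Tex19.1 (0.0707 to 0.200), and so did a pseudocount of 0.1 (0.0798 and 0.0671). Without the filter on low values both calls were also lost, in the colon (adjusted p = 0.207 for each) and in the small intestine (0.0727 for Mageb16 and 0.166 for Tex19.1), while Trap1a stayed called in every alternative. The median difference over all genes in the colon was 0.23, and rescaling the libraries left all 3 calls in place. In the small intestine leaving out emSI replicate 1, exSI replicate 1 or exSI replicate 2 ended the call of Tex19.1, with an adjusted p up to 0.0953. Xist was at most 1.37 TPM in the extraembryonic libraries at E13.5 and at 0 in the embryonic ones, so the origins differed little in Xist at this stage. The 7 mesenchyme markers summed to 96.5 to 488 TPM in the embryonic and 4.65 to 61.4 TPM in the extraembryonic E13.5 libraries. The 8 visceral and yolk sac endoderm markers summed to 4746 to 7654 TPM in exSI against 1705 to 2268 TPM in emSI, without overlap, and to 3010 to 8270 TPM in exColon against 2515 to 4927 TPM in emColon. The part of either marker list in the differences was not tested.

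Whether the difference between origins itself differed between colon and small intestine was tested as an interaction. None of the 4 genes tested passed, where 0.016% of 12483 genes did, and at an unadjusted p under 0.05 the count was also 0, where 1038 of all genes passed. The interaction was 0.30 ± 0.56 (SE) for Trap1a, -0.05 ± 0.95 for Mageb16, 0.07 ± 1.06 for Tex19.1 and -0.69 ± 2.00 for Gm773, with limma adjusted p from 0.929 to 0.996. The SE exceeded the estimate for all 4 genes.

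Distal and proximal endoderm were compared at E6.5, again in libraries outside the E9.5 contrast. Presence in these tissues is implied by the word retained, so their libraries are not independent of the choice of the genes. All 4 exEndo 1 libraries held more Trap1a than all 4 exEndo 2 libraries, a difference of 0.61 ± 0.15 (SE) on the log2(TPM + 1) scale (limma, adjusted p = 0.0197) that stayed under the size threshold of 1. Mageb16 differed by 0.46 ± 0.16 (limma, adjusted p = 0.0859, or 0.0379 with the replicate number as a block) and Tex19.1 by -0.01 ± 0.38 (adjusted p = 0.991). None of the 3 genes tested was called, against 6.41% of 11414 genes, and 2 of the 3 had an unadjusted p under 0.05, as had 3272 of the 11414. Xist was at 231 and 123 TPM in replicates 1 and 3 of exEndo 1 and at 490 and 199 TPM in the same replicates of exEndo 2, and at most 2.96 TPM in replicates 2 and 4. Trap1a in exEndo 1 was 322 and 258 TPM in the libraries with high Xist and 275 and 242 TPM in those with low Xist, which overlap. In exEndo 2 it was 133 and 185 TPM in the libraries with high Xist and 214 and 191 TPM in those with low Xist, which do not overlap. Xist was at most 1.67 TPM in Epi. The part of sex in the levels of the X-linked genes was not tested. Epiblast markers summed to 368 to 525 TPM in exEndo 1 and 174 to 229 TPM in exEndo 2, without overlap. Mesenchyme markers summed to 11.1 to 19.3 and 47.7 to 91.1 TPM, also without overlap. Visceral and yolk sac endoderm markers summed to 9486 to 16022 and 5037 to 10097 TPM. The part of these markers in the difference of Trap1a was not tested.

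From exEndo 2 at E6.5 to YsEndo at E9.5, Trap1a rose and the other genes tested were not called. Through the word retained, the exEndo 2 libraries are not independent of the choice of the genes. All 4 YsEndo libraries held more Trap1a than all exEndo 2 libraries, and the difference was 2.36 ± 0.13 (SE) on the log2(TPM + 1) scale (limma, adjusted p = 2.00e-08). Tex19.1 differed by -0.81 ± 0.19 (limma, adjusted p = 0.00210), which stayed under the size threshold, and Mageb16 by 0.10 ± 0.15 (adjusted p = 0.548). Thus 1 of 3 genes tested was called, against 29.6% of 11205 genes, with 7.95% called higher. The median over all genes was -0.41, so relative to it Tex19.1 lay lower, and Mageb16 and Trap1a higher. Gm773 was not tested, because 1 of the 4 YsEndo libraries was at 0. Without the filter on low values it differed by 3.78 (limma, adjusted p = 0.0282), which makes 2 genes called, and the same count was reached when YsEndo replicate 1 or any 1 exEndo 2 library was left out. In those fits Gm773, at most 0.310 TPM in exEndo 2, passed the filter through YsEndo alone, so a call could only be higher. With median-ratio rescaling, which moved the median to 0.01, 56.9% of the calls over all genes were higher, against 26.9% without it. The markers of visceral and yolk sac endoderm summed to 5037 to 10097 TPM in exEndo 2 and 62393 to 72868 TPM in YsEndo, and their part in the rise of Trap1a was not tested. Stage, the way of isolation and the pooling of embryos changed together here.

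Extraembryonic gut was next compared with yolk sac endoderm at E9.5, the 2 destinations of extraembryonic endoderm. The exMidgut and exHindgut libraries in these comparisons also took part in choosing the genes. Every exMidgut and exHindgut library held less Trap1a than every YsEndo library, with a difference of -0.72 ± 0.09 (SE) for exMidgut (limma, adjusted p = 2.96e-05) and -0.77 ± 0.08 for exHindgut (adjusted p = 4.80e-06). Neither passed the size threshold of 1. The same markers of visceral and yolk sac endoderm summed to 7093 to 17069 TPM in exMidgut and 115 to 686 TPM in exHindgut, and their part here was not tested either. None of the 4 genes tested was called in either comparison, against 44.3% of 11850 genes for exMidgut and 46.4% of 11903 genes for exHindgut, and by unadjusted p under 0.05 the count was 1 in each, Trap1a, where 8016 and 8659 of all genes passed. Most genes lay above YsEndo, with a median of 0.51 for exMidgut and 0.56 for exHindgut. When the libraries were rescaled by median ratios, these medians became 0.01 and 0.02, the share of calls that were higher went from 75.8% to 54.2% and from 73.0% to 51.6%, and Trap1a was called lower in both, at -1.27 (limma, adjusted p = 6.10e-07) and -1.36 (adjusted p = 2.32e-08).

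Mageb16 differed from YsEndo by -0.17 ± 0.21 (SE) in exMidgut and 0.29 ± 0.22 in exHindgut (limma, adjusted p = 0.494 and 0.252), and Tex19.1 by 0.10 ± 0.71 and 0.28 ± 0.27 (adjusted p = 0.908 and 0.375). The positive estimates turned negative after median-ratio rescaling, at -0.28 for Mageb16 in exHindgut and -0.41 and -0.28 for Tex19.1, so no direction is given for these genes. Gm773 differed by -0.86 ± 1.59 in exMidgut and -0.51 ± 1.70 in exHindgut (limma, adjusted p = 0.654 and 0.796). Its libraries at 0 and its high libraries lay in all 3 groups. Tex101 was too low to be tested.

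Midgut and hindgut of extraembryonic origin were not distinguished by any of the 5 genes. These libraries, too, took part in choosing the genes. All 5 were tested and none was called, against 11.3% of 12331 genes, nor did any have an unadjusted p under 0.05, which 3770 of all genes had. The difference of exHindgut from exMidgut was -0.05 ± 0.10 (SE) for Trap1a, 0.46 ± 0.26 for Mageb16, 0.18 ± 0.70 for Tex19.1, -0.76 ± 0.69 for Tex101 and 0.34 ± 1.76 for Gm773, with limma adjusted p from 0.250 to 0.920. The SEs of Tex19.1 and Gm773 leave room for differences past the size threshold in either direction.  A p above the threshold does not show that the levels were alike.

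From E9.5 to E13.5, the levels of the genes were compared along the extraembryonic lineage, where the stage, the Trp53 genotype and the pooling of embryos change together. The E9.5 libraries are those in which the genes were chosen for being high. In the colon against exHindgut, Trap1a differed by 0.45 ± 0.13 (SE; limma, adjusted p = 0.0509), Mageb16 by 0.00 ± 0.39 (adjusted p = 0.999), Tex19.1 by 0.64 ± 0.43 (adjusted p = 0.359) and Gm773 by -0.36 ± 1.93 (adjusted p = 0.927). All 3 exColon libraries held more Trap1a than all 4 exHindgut libraries. Visceral and yolk sac endoderm markers summed to 3010 to 8270 TPM in exColon and 115 to 686 TPM in exHindgut, without overlap. The part of these markers in the Trap1a levels was not tested. Xist was at 22.3 TPM or more in all exMidgut libraries, at 42.4 TPM or more in all exHindgut libraries and at most 1.37 TPM in exSI and exColon, and its part in the levels of the X-linked genes was not tested. In the small intestine against exMidgut, Trap1a differed by 0.10 ± 0.13 (SE; limma, adjusted p = 0.645), Mageb16 by 0.30 ± 0.33 (adjusted p = 0.552), Tex19.1 by 0.75 ± 0.90 (adjusted p = 0.597) and Gm773 by 0.67 ± 1.76 (adjusted p = 0.821). None of the 4 genes tested was called in either, against 10.3% of 12392 genes in the colon and 15.4% of 12348 genes in the small intestine. By an unadjusted p under 0.05 the count was 1 in the colon, Trap1a, where 3526 of all genes passed, and 0 in the small intestine, where 4199 did. The median over all genes was -0.21 in the colon and -0.33 in the small intestine. Under quantile normalization the share of calls that were higher went from 35.1% to 51.8% in the colon and from 25.8% to 46.6% in the small intestine, and the Trap1a estimate for the small intestine turned to -0.04.

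**Figure D4:**
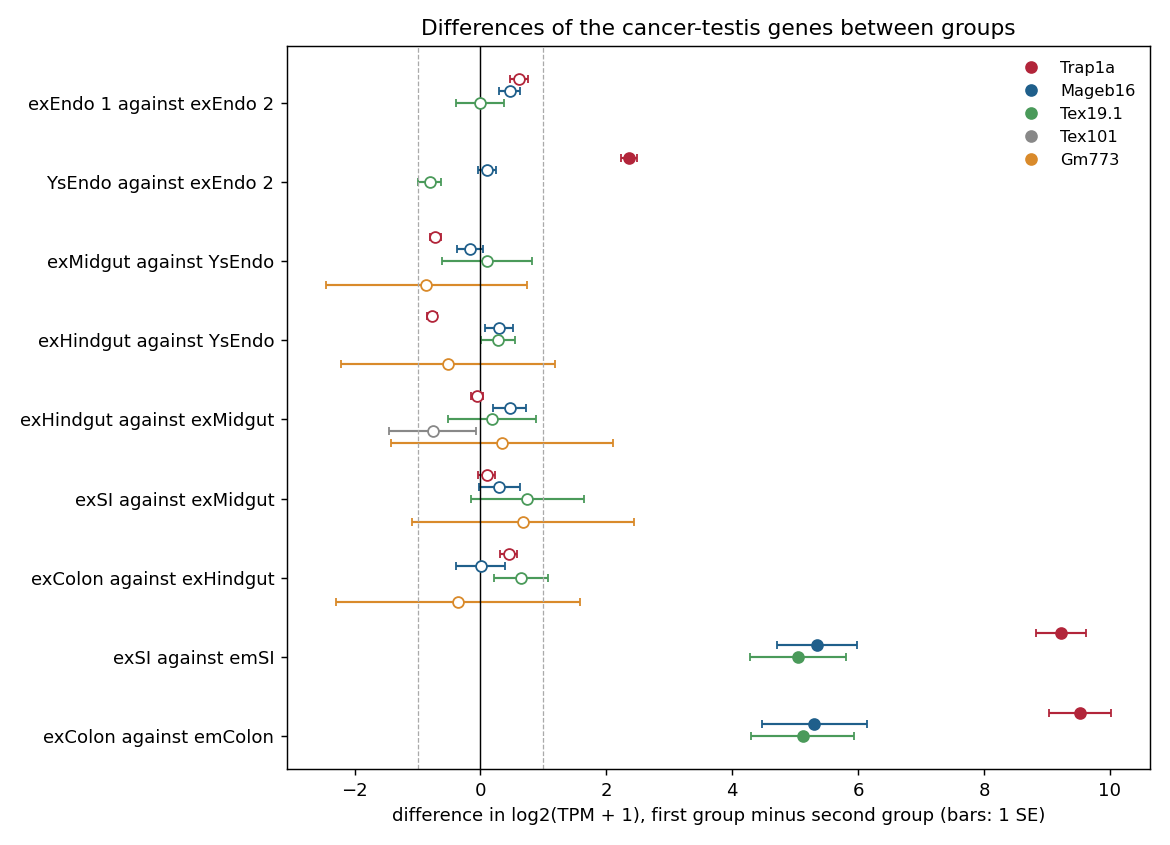
Difference between 2 groups on the log2(TPM + 1) scale (x axis, first named minus second named) for each comparison (y axis) and each gene tested, with bars of 1 SE; filled points passed both thresholds and dashed lines mark a difference of 1. Filled points are Trap1a, Mageb16 and Tex19.1 for both organs at E13.5, between 5.05 and 9.52, and Trap1a for YsEndo against exEndo 2 at 2.36.

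Of 22 other MAGE genes found, 8 were tested between exGut and emGut at E9.5 and none was called, while 2.35% of 13473 genes were, and none of the 5 tested in either organ at E13.5 was called, where 0.269% of genes in the colon and 0.738% in the small intestine were. With so few tested, counts of 0 are near the background. Maged1 and Maged2, broadly expressed members of the family, were at 345 ± 62.9 and 144 ± 32.9 TPM (SD, n = 8) in exGut and at 359 ± 51.9 and 154 ± 58.6 TPM in emGut. Against YsEndo, 3 of 5 were called higher in exMidgut and 4 of 7 in exHindgut, where 33.5% and 33.9% of all genes were, among them Ndn, a regulator of neuronal growth, by 4.83 and 5.45, and Maged2 by 3.74 and 4.21 on the log2(TPM + 1) scale. Ndn, at 0.682 ± 0.584 TPM (SD, n = 4) in YsEndo, and Magel2, at 0 there, entered the test through exGut and could hardly be called lower. After median-ratio rescaling 3 of 5 and 4 of 7 were again called higher, where 22.4% and 21.4% of all genes were. Mageh1 was then called lower in exHindgut, at -1.24 (limma, adjusted p = 1.88e-06). From E9.5 to E13.5, 2 of 8 were called lower in the colon and 3 of 6 in the small intestine, where 6.71% and 11.4% of all genes were. Ndn fell by 2.67 and by 1.75, and in the small intestine Mageh1 fell by 1.77 and Maged1 by 1.10, the last by 0.87 and no longer called after median-ratio rescaling.

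Few other X-linked testis genes were detected. Of 29 found, 3 were tested at E9.5 and called higher in exGut than in emGut, where 1.08% of genes were called higher. Xist was at 22.3 TPM or more in exGut and at most 0.252 TPM in emGut, and its part was not tested. Mesenchyme markers summed to 28.5 to 61.1 TPM in exMidgut and 112 to 185 TPM in emMidgut. In exHindgut and emHindgut they summed to 23.1 to 50.1 and 57.3 to 91.5 TPM. Visceral and yolk sac endoderm markers summed to 7093 to 17069 and 1460 to 3182 TPM in exMidgut and emMidgut, and to 115 to 686 and 26.7 to 86.75 TPM in exHindgut and emHindgut. The part of these markers in E9.5 calls between origins was not tested. Tex11 and Luzp4 passed the filter through exGut alone, so a call of theirs could go in that direction only. Rhox5 was at 923 ± 168 TPM in exGut and 6.66 ± 9.38 TPM in emGut (SD, n = 8), Tex11, a gene of meiotic recombination, at 4.38 ± 2.35 and 0.00758 ± 0.0214 TPM, and Luzp4 at 2.28 ± 1.72 TPM against 0. Here too the n of 8 joins midgut and hindgut libraries that may share embryos. At E13.5 Rhox5 was the 1 gene of this list called higher in the colon, of 1 tested, and in the small intestine, of 2 tested, where 0.233% and 0.51% of all genes were, at 981 ± 283 TPM in exColon and 1237 ± 289 TPM in exSI (SD, n = 3) and 0 in all embryonic libraries, which again left 1 direction open to a call. Against YsEndo, Rhox5 was lower in exHindgut by -1.20 ± 0.08 (SE; limma, adjusted p = 5.41e-08). In exMidgut it differed by -0.87 and was not called, but it was called at -1.42 after median-ratio rescaling. Tex11 was called higher in exMidgut, by 1.98, and in exHindgut, by 1.195. It was the 1 gene of 3 tested called higher in each, where 33.5% and 33.9% of all genes were. At 0.635 ± 0.559 TPM (SD, n = 4) in YsEndo, Tex11 passed the filter largely through exGut and could hardly be called lower. After quantile normalization Tex11 was called in neither, at 0.94 and 0.28, and after median-ratio rescaling not in exHindgut, at 0.91. At E6.5 Taf7l, a testis-specific TFIID subunit, was called lower in exEndo 1 than in exEndo 2, at 0.549 ± 0.259 and 4.52 ± 2.22 TPM (SD, n = 4). It was 1 of 2 tested, where 2.45% of all genes were called lower. Taf7l passed the filter through exEndo 2 alone, so a call could go in that direction only.

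Of 13 autosomal germline genes tested at E9.5, 2 were called higher in exGut than in emGut, where 1.08% of all genes were, namely Slc25a31, a mitochondrial ADP/ATP carrier of sperm, and Tekt5, a sperm flagellum protein. Slc25a31 was at 15.7 ± 9.67 TPM in exGut and 0 in emGut and was called higher in exSI, at 17.9 ± 6.55 TPM (SD, n = 3) against 0, as 1 of 4 tested, where 0.51% of all genes were. It passed the filter through the extraembryonic libraries alone in both comparisons, so a call could go in that direction only. In the colon 0 of 4 were called, where 0.233% of all genes were called higher, and Slc25a31, at 32.7 ± 29.8 TPM against 0, differed by 4.63 ± 0.94 (SE; limma, adjusted p = 0.101). At E6.5, 1 of 13 tested was called lower in exEndo 1 than in exEndo 2, where 2.45% of all genes were, Tex15 at -2.09, and with the replicate number as a block Fkbp6 was called as well, at -2.13 (limma, adjusted p = 2.52e-04, and 0.122 without the block). From exEndo 2 to YsEndo, 8 of 10 autosomal germline genes tested were called lower, where 21.6% of all genes were. Some of them, such as Tex15 at 0.517 ± 0.250 TPM (SD, n = 4) in YsEndo, passed the filter through exEndo 2 and could hardly be called higher, so nothing is read from 8 of 10 beside that share. Sycp3, a component of the synaptonemal complex, fell by 4.23, Tex15, a factor of transposon silencing in germ cells, by 3.78, Ddx4, a germ cell RNA helicase, by 3.16 and Fkbp6, a piRNA pathway factor, by 2.34 on the log2(TPM + 1) scale. After median-ratio rescaling 7 of the 10 were called lower, where 10.1% of all genes were, and after quantile normalization 4, where 10.3% were and Fkbp6, at -1.96, was not called. Trap1a rose in that comparison. Between exHindgut and exMidgut, Tex15 was higher by 2.59 and Slc25a31 lower by -1.78. Of 8 tested, 1 was called higher and 1 lower, where 4.5% and 6.78% of all genes were.

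Genes linked to Tex101, such as the sperm ADAM genes, and genes that silence germline genes gave no call between origins at E9.5 and E13.5. Of the 10 in the former list 4 were tested between exGut and emGut and none was called, and 1 was tested in each organ at E13.5 and none was called. Of 12 silencers, among them the DNA methyltransferases, Uhrf1, Setdb1, Trim28, E2f6, Mga and Ubr2, 11 were tested between exGut and emGut and in each organ at E13.5, and none was called. Over all genes 2.35% were called between exGut and emGut, 0.269% in the colon and 0.738% in the small intestine, so counts of 0 in lists of this size are near the background. From exEndo 2 to YsEndo 5 of 11 were called lower, where 21.6% of all genes were, and the de novo methyltransferase Dnmt3b fell by 3.65. After median-ratio rescaling Dnmt3b was the 1 silencer still called lower, while Trim28, Mga, Ubr2 and Setdb1, at -1.40 to -1.16 before, were not called, and Dnmt3a was called higher, at 1.37. Between exEndo 1 and Epi, 4 of 12 silencers were called lower and 0 higher, and 1 of 2 of the genes linked to Tex101, Adam2 at -1.004, was called lower, but not after quantile normalization, at -0.92. In Epi and exEndo 1, Dnmt3b was at 1465 ± 228 and 308 ± 60.1 TPM (SD, n = 4), a difference of -2.26 in limma (adjusted p = 6.11e-07). Between these tissues 33.4% of all genes tested were called and 13.6% were called lower. From E9.5 to E13.5 Dnmt3a and Dnmt3b fell in both organs, Dnmt3b by 2.33 in the colon and by 2.61 in the small intestine. In each organ 2 of 11 silencers were called lower, where 6.71% of all genes were in the colon and 11.4% in the small intestine. The lists were drawn up with results of these data known, so their counts are no independent evidence of a direction.

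The genes whose levels were most like each member were sought over the 44 libraries by Pearson correlation of log2(TPM + 1), among 14684 protein-coding genes above 1 TPM in at least 4 libraries. For Trap1a they were Xlr5c, Xlr5a and Xlr5b, with correlations of 0.96, 0.95 and 0.95. For Mageb16 they were Rhox5, Xlr4b and Xlr3b, at 0.98, 0.97 and 0.97, and for Tex19.1 Xlr4b, Xlr4c and Xlr3b, at 0.91, 0.90 and 0.90. All of these neighbours lie on the X chromosome, and the Xlr genes form families of near-identical copies among which reads can be split. Xlr5a, for example, averaged 167 TPM in exMidgut and 175 TPM in exHindgut, 0.197 and 0.0241 TPM in emMidgut and emHindgut, and 176 TPM in exSI and 230 TPM in exColon against 0 in both embryonic intestine groups. The difference between origins by which the genes were chosen enters these correlations over 44 libraries. Over the 26 extraembryonic libraries alone the same 9 correlations ran from 0.04 to 0.51.

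For the unevenly detected genes no close neighbour was found. The 3 highest correlations were 0.64, 0.64 and 0.62 for Tex101, with Agxt, Gm9 and Barx1, and 0.65, 0.64 and 0.61 for Gm773, with Il19, Gm15128 and Gm15107. Il19, a cytokine gene, averaged 5.34 TPM in exMidgut, 4.74 TPM in exSI and 10.3 TPM in exColon. In exHindgut, the group with the highest mean of Gm773, Il19 averaged 1.69 TPM. It averaged 2.41 TPM in YsEndo and 1.075 TPM in emMidgut, where Gm773 was listed at 0. Gm15128 and Gm15107, both X-linked, averaged at most 1.80 TPM in any group. The libraries of 1 group share tissue, stage and preparation, so these correlations describe the 44 libraries and carry no p.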

How the data were processed

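RNA was measured by low-input RNA-seq in 44 libraries of 12 groups. Per the labels and the methods of the study, the authors removed adapters (cutadapt 4.1), mapped the reads to mm10 extended by the reporter sequences (STAR 2.7.9a) and quantified GENCODE VM23 genes with StringTie 2.0.6 without assembling new transcripts. The deposited values are coverage, FPKM and TPM per gene, and TPM sums to 1000000 in each library, so read counts and depth in reads were not used here. TPM was summed per gene identifier. Gene types and positions came from GENCODE vM21, in which 32237 of 32287 identifiers matched, and promoter sequences from RefSeq (GRCm38.p6), in which all 5 genes matched. Sequences of the proteins were not used here.

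Groups followed the sample labels. Differences were tested with limma 3.58.1 in R 4.3.3 (lmFit, eBayes with trend, two-sided) on log2(TPM + 1), which understates changes of low genes, with Benjamini-Hochberg adjustment over all protein-coding, not Y-linked genes above 1 TPM in at least as many libraries as the smaller group holds (4 of the 16 for exGut against emGut). A call required both a size above 1 and, after adjustment, p under 0.05, whereas interactions had no size limit. The authors tested counts with DESeq2, for which the deposited TPM is not suited. The fits were tested on simulated data. Levels, ranges and promoter contents were derived in Python 3.11.15 (numpy 2.4.6, pandas 2.3.3). The members and the gene lists were chosen with earlier results of these data known. Named were the 5 genes, the 3 genes closest to each by correlation, at most 4 called genes per list and comparison, and mCherry, EGFP, Trp53 and Xist as checks. The motifs were chosen after the promoters were seen. EGFP was at 180 TPM or more in libraries of embryonic origin and at most 15.9 TPM in the others.

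Equal replicate numbers paired exEndo 1 with exEndo 2, where the deviations of same-numbered libraries correlated at 0.17 to 0.40 in all 4 pairs. Between the other groups, Epi with exEndo 1 and embryonic with extraembryonic gut included, they correlated at 0.20 or less. Neither these values nor the labels show whether those groups share embryos. The study pooled corresponding midgut, hindgut and yolk sac tissues at E9.5, so shared embryos are possible. The main fits and the interaction took all libraries as independent. Libraries of a group are numbered as replicates, and p-values measure the spread between these libraries alone. Read numbers per library were not used here, so no counting interval was computed.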

Additional observations from a re-analysis of the deposited data

Results flagged for a closer look

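In 32 combinations of a gene and a group of 4 libraries with a range above 0, 8 had 1 library far from the other 3, with a gap above Dixon's 95% critical value as a share of the range, a rule that chance meets in about 1 of 20 groups. Groups with most libraries at 0 meet it easily. Trap1a was at 9.53 TPM in emMidgut replicate 3 and at most 0.297 TPM in the others. Another 3 of the 8 cases concern exEndo 1 replicate 1, which held Tex19.1 at 81.8 TPM against 19.6 to 24.1 TPM, Gm773 at 19.07 TPM against 0, and Tex101 at 0.459 TPM against 0. Epi replicate 1 held Mageb16 at 8.05 TPM against at most 0.633 TPM and Tex101 at 0.683 TPM against at most 0.0662 TPM, beside Rhox5 at 13.4 TPM and mCherry at 0.822 TPM, which were at most 0.850 and 0.0953 TPM in the other Epi libraries. Tex19.1 was at 2.07 TPM in emHindgut replicate 2 and at 0 in the other 3, and Gm773 at 0.310 TPM in exEndo 2 replicate 2 and at most 0.0460 TPM in the others.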

How the results depend on the processing

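Each result was recomputed with 0.1 as pseudocount, without the filter on low values, after median-ratio rescaling, after quantile normalization, from FPKM, with all 44 libraries in a single fit, with a replicate block, and without each library in turn, where the filter followed the smaller group. Of 146 counts of genes called under an alternative, 129 were within 1.5 times the main count. In the colon at E13.5 the count of 3 called genes fell to 1 with the pseudocount of 0.1, without the filter, and with any library left out (1 to 1). In the small intestine it fell from 3 to 1 without the filter. Against YsEndo it rose from 0 to 1 for exMidgut and for exHindgut with median-ratio rescaling, by Trap1a. For YsEndo against exEndo 2 it rose from 1 to 2 without the filter, and leaving out libraries gave 1 to 2. The cause was not tested, except that without the filter more genes are tested and with a library left out fewer samples are.

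The replicate block left the counts of called genes at 0, 1 or 3 as in the fits without it and changed no call of the 5 genes. The rescalings were run on the gene lists after the data were seen, and so was the block, except for exGut against emGut. Where numbers did not pair the groups, same-numbered libraries correlated at -0.17 to 0.20, and every library correlated best with its own number in the comparisons of exColon with emColon and exSI with emSI, a hint from the data and not from the design. Estimates that changed sign belonged to genes that were not called. With median-ratio rescaling, Tex19.1 turned to -0.41 (exMidgut against YsEndo), -0.28 (exHindgut against YsEndo) and -0.0356 (interaction), and Mageb16 to -0.28 (exHindgut against YsEndo). With quantile normalization, Tex19.1 turned to -0.52 and -0.27 and Mageb16 to -0.0477 against YsEndo, and Trap1a to -0.0446 for exSI against exMidgut. For exColon against exHindgut, the pseudocount of 0.1 turned Mageb16 to -1.13e-04 and Gm773 to 0.15, and the replicate block turned Gm773 to 0.93.

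With a library left out, Tex19.1 ran from -0.47 to 0.20 for exEndo 1 against exEndo 2, from -0.63 to 0.72 for exMidgut against YsEndo, from -0.44 to 0.91 between the gut regions and from -0.64 to 0.62 for the interaction. Gm773 ran from -2.16 to 0.15 and from -1.81 to 0.61 against YsEndo in exMidgut and exHindgut, from -0.94 to 1.47 between the regions, from -1.69 to 1.15 for exColon against exHindgut, from -0.56 to 2.53 for exSI against exMidgut and from -2.54 to 0.82 for the interaction. Mageb16 ran from -0.45 to 0.31 for exColon against exHindgut and from -0.50 to 0.26 for the interaction, and Trap1a from -0.0941 to 0.00759 between the regions. Over 12 group means in place of 44 libraries, all 15 nearest-gene correlations stayed positive, but most of the named genes were no longer among the 3 nearest. Those that were are Xlr5c and Xlr5a for Trap1a, Rhox5 for Mageb16, Xlr4b and Xlr3b for Tex19.1, and Barx1 for Tex101. With no read counts, levels under about 1 TPM, which include most values of Tex101, cannot be given an error from depth.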
